A study of Arabidopsis thaliana with 6 samples.

Results

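GSTU1 to GSTU7 are the 7 tau class glutathione transferase genes that lie in tandem on chromosome 2 of Arabidopsis thaliana, and they were taken by locus, AT2G29490 for GSTU1, then AT2G29480, AT2G29470, AT2G29460, AT2G29450 and AT2G29440 in order to GSTU6, and AT2G29420 for GSTU7. Each had 1 probe set among the 21430 of the deposited table. Wild-type Columbia-0 seedlings were grown to day 7 in liquid medium with sucrose in multiwell plates. They then received hydrogen peroxide (H2O2) to 10 mM, or an equal volume of water (mock), and were harvested 24 h later. Each group had 3 arrays, each made from a pool of 4 to 5 plants. The labels call the material leaf in one field and seedling in another, and leave unsaid whether each pool was a separate culture. The p-values therefore reflect the variation among these particular pools, some of which may be technical.

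Glutathione transferases join the tripeptide glutathione to electrophilic compounds, such as herbicides and the products of lipid peroxidation. The tau class is specific to plants, and its members are mostly cytosolic enzymes that also bind fatty acid derivatives. The conjugates are carried into the vacuole by ABCC transporters and are broken down there. Many tau class genes are known to respond to oxidative stress, xenobiotics and oxylipins, in part through TGA transcription factors and their partner SCL14. For most of the 7 genes the individual substrate in the plant is not settled, so the members are described below in order of their change.

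All 7 genes had higher values on every H2O2 array than on any mock array. The increases ran from 1.96-fold for GSTU6 to 24.1-fold for GSTU4. These limits depend on low mock values, since with values under 3.74 on the log2 scale raised to that level GSTU4 rose 15.6-fold and GSTU3, at 1.05-fold, was the smallest. Among all 21430 probe sets, the 3 H2O2 arrays lay above the 3 mock arrays for 22.2%, and among the 15001 that passed the filter described next for 26.6%. The filter on low values, a mean over the 6 arrays of at least 3.79 on the log2 scale, was passed by 6 of the 7 genes. In limma, with Benjamini-Hochberg adjustment over all 15001 probe sets tested, these 6 were called higher at an adjusted p under 0.05, where 23.9% of all probe sets tested were called higher and 36.5% lower. Of the 6, 5 rose at least 2-fold, against 7.63% of probe sets tested. GSTU2, GSTU3 and GSTU4 had mock means under 3.79, so GSTU2 and GSTU4 entered the test through their H2O2 values, and the count of 6 is a description of those that passed.

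**Figure D1:**
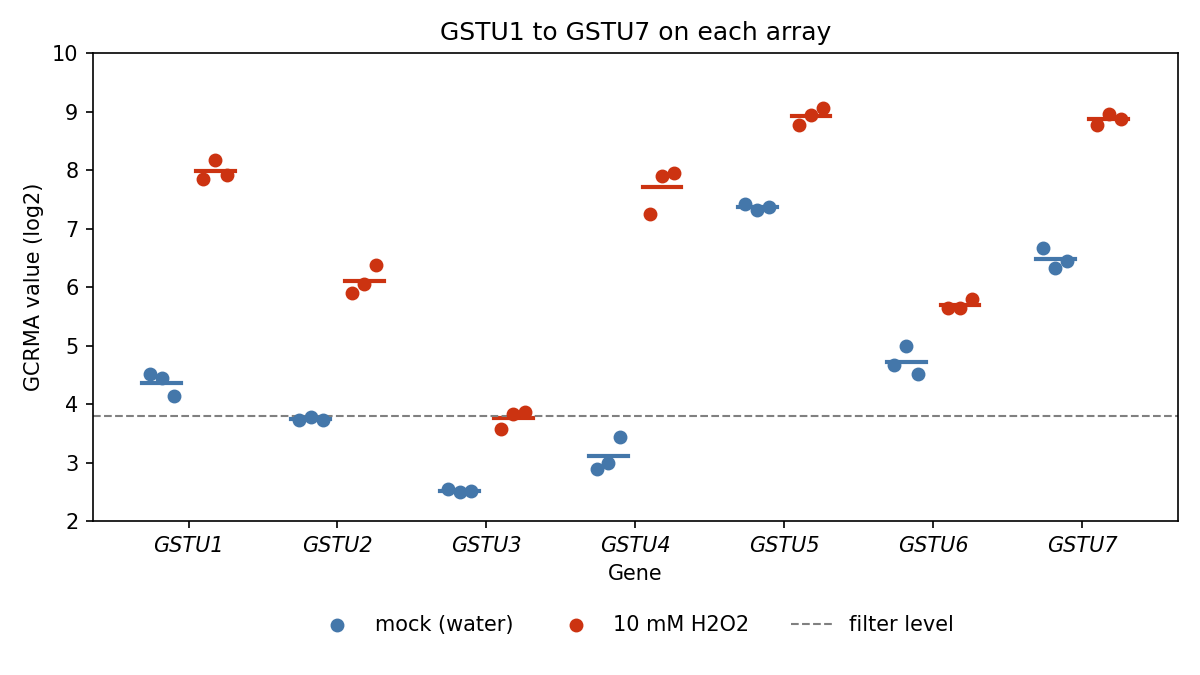
Deposited GCRMA values (log2, vertical axis) of each gene (horizontal axis) on the 3 mock and the 3 H2O2 arrays, drawn as points with bars at the group means and, from left to right within a group, replicates 1 to 3. The groups overlap for none of the 7 genes, and the dashed line marks the filter level of 3.79, below which the mock means of GSTU2, GSTU3 and GSTU4 lie.

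GSTU4 (AT2G29460) changed most. Its log2 values were 2.89, 3.00 and 3.45 on the mock arrays and 7.26, 7.90 and 7.95 on the H2O2 arrays. The lowest H2O2 array exceeded the highest mock array by 3.81. The log2 change was 4.59 (95% interval 4.12 to 5.06, adjusted p = 5.84e-07 in limma). Its spread was also the widest of the 7, with an SD of 0.29 in mock and 0.39 in H2O2, where the medians over probe sets tested were 0.09 and 0.11. All 3 mock values lie under the filter level of 3.79, where values are uncertain. With low values raised the log2 change was 3.96 in place of 4.59.

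GSTU1 (AT2G29490), at the other end of the cluster from GSTU7, had the next largest change. The mock arrays gave 4.52, 4.45 and 4.13, and the H2O2 arrays 7.84, 8.17 and 7.92. The change of 3.61 (95% interval 3.32 to 3.90) was 12.2-fold, with an adjusted p of 1.54e-07 in limma and rank 97 among increases. Its mock mean lay above the filter level, and raising low values left the fold as it was, at 12.2.

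GSTU7 (AT2G29420) and GSTU2 (AT2G29480) rose by 2.39 and 2.36 on the log2 scale. GSTU7, which has been studied for its part in tolerance of the herbicide methyl viologen, gave 6.67, 6.32 and 6.45 in mock and 8.78, 8.96 and 8.87 in H2O2 (95% interval of the change 2.15 to 2.62, adjusted p = 5.07e-07 in limma). GSTU2 gave 3.74, 3.78 and 3.74 in mock and 5.91, 6.05 and 6.38 in H2O2 (95% interval of the change 2.09 to 2.63, adjusted p = 1.02e-06 in limma). These are 5.22-fold and 5.13-fold increases. The mock arrays agreed closely for GSTU2, with an SD of 0.03, while its H2O2 arrays had an SD of 0.24. Its mock values sit at the level to which low values were raised, which moved its increase only to 5.11-fold.

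GSTU5 (AT2G29450) had an SD of 0.05 in mock and 0.15 in H2O2. Its values were 7.42, 7.31 and 7.36 in mock and 8.77, 8.94 and 9.06 in H2O2. The change of 1.56 (95% interval 1.35 to 1.77, adjusted p = 2.53e-06 in limma) was 2.94-fold. None of its arrays came near the filter level, so neither the filter nor the floor touched this value.

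GSTU6 (AT2G29440) and GSTU3 (AT2G29470) had the smallest changes. GSTU6 gave 4.66, 5.00 and 4.52 in mock and 5.64, 5.65 and 5.80 in H2O2, and the nearest arrays of the groups were 0.65 apart. Its change of 0.97 (95% interval 0.69 to 1.25, adjusted p = 0.000234 in limma) was 1.96-fold, and the interval includes 2-fold. GSTU3 gave 2.56, 2.49 and 2.53 in mock and 3.58, 3.83 and 3.87 in H2O2, a 2.35-fold difference (1.23 on the log2 scale). It did not pass the filter and was not tested in the fit above. Without a filter it was called (95% interval 1.02 to 1.45, adjusted p = 9.48e-06 in limma), in a fit over 21430 probe sets of which 18.2% were called higher. With low values raised its difference fell to 0.071, so its size rests on values at the bottom of the scale.

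**Figure D2:**
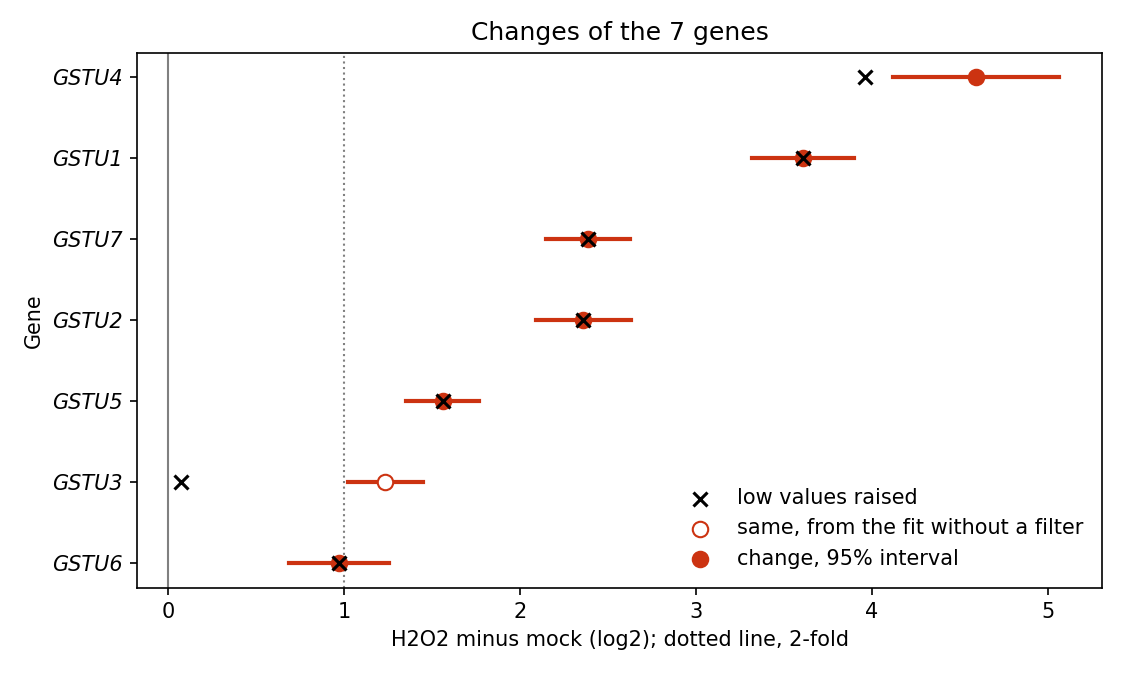
Change of each gene (vertical axis) in H2O2 minus mock on the log2 scale (horizontal axis), with 95% intervals from limma, a cross for the value with low values raised and a dotted line at 2-fold. GSTU4 and GSTU1 lie above 3.5, the cross departs from the point for GSTU4 (3.96 in place of 4.59) and GSTU3 (0.071 in place of 1.23), and the open point of GSTU3 comes from the fit without a filter.

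Within the H2O2 group, replicate 1 was the lowest array for all 7 genes, and replicate 3 was the highest for 5 of them. Among the 3584 probe sets called higher, replicate 1 was the lowest H2O2 array for 33.3%, and replicate 3 was the highest for 44.5%. In mock no array was the lowest for all 7 genes. The lowest mock value fell on replicate 1 for 2 genes, on replicate 2 for 3 and on replicate 3 for 2. Among the 3584 probe sets these shares were 28.7%, 37.1% and 34.2%. The gap between H2O2 replicate 1 and the other H2O2 arrays was widest for GSTU4, at 7.26 against 7.90 and 7.95. The change of GSTU4 was 4.81 without H2O2 replicate 1. Without any 1 of the 6 arrays, the 6 genes that passed the filter were all still called.

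The sizes of the changes were then compared between the genes. Since the levels of different probe sets cannot be compared on arrays, each pair of genes was compared by the difference between their log2 values on the same array, which was then set between mock and H2O2. In 19 of the 21 pairs this difference did not overlap between the groups. Each of these had an exact permutation p of 0.10 (two-sided, 3 against 3 arrays, adjusted 0.11 over the 21 pairs). That is the smallest p that permuting 3 against 3 unpaired arrays allows, so no pair could pass 0.05. How often pairs of other probe sets fail to overlap was not computed, so the count of 19 is a description. The largest difference was between GSTU4 and GSTU6, at 3.62 (SE 0.34). GSTU4 exceeded GSTU1 by 0.98 (SE 0.34), and with low values raised these 2 were closer, at 3.96 and 3.61.

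The 2 pairs that overlapped were GSTU2 with GSTU7, and GSTU3 with GSTU6. The change of GSTU2 was below that of GSTU7 by 0.027 (SE 0.18, exact permutation p = 1.00), and its sign turned when mock replicate 2, H2O2 replicate 1 or H2O2 replicate 2 was left out. By replicate number the difference was 0.069, -0.37 and 0.23. The change of GSTU3 exceeded that of GSTU6 by 0.26 (SE 0.17, exact permutation p = 0.20). Taken by replicate number it was higher in 3 of 3 pairs of arrays, by 0.037, 0.69 and 0.068. With low values raised it was below that of GSTU6 by 0.90. These p-values do not show that the members of either pair changed alike.

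**Figure D3:**
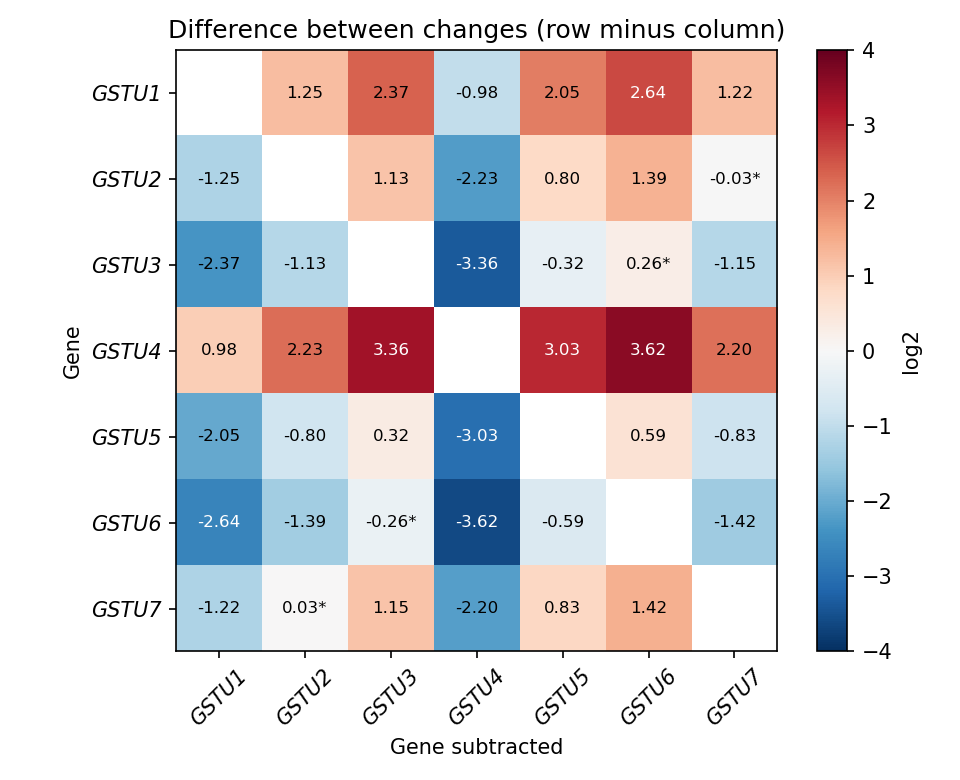
Difference between the log2 changes of each pair of genes, as the gene of the row minus the gene of the column (colour scale in log2), with an asterisk on the 2 pairs whose array differences overlap between mock and H2O2. The row of GSTU4 is positive throughout, from 0.98 against GSTU1 to 3.62 against GSTU6.

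By locus order in RefSeq (TAIR10.1, from which only names and order were taken), the cluster runs from GSTU7 to GSTU1. Along it the changes were 2.39, 0.97, 1.56, 4.59, 1.23, 2.36 and 3.61 on the log2 scale, with no steady rise or fall from end to end. GSTU4, with the largest change, stands between GSTU5 and GSTU3, with 2 of the 3 smallest. RefSeq places 5 further loci between the members, and none of them had a row in the values. No member shared identical values with another locus, but tandem copies can be close in sequence and the probe definition is not given in the sources used here, so a part of each signal could come from a neighbouring copy, which was not tested.

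Of the 10 measured loci beside the cluster, 5 on each side, 8 passed the filter, of which 1 was called higher, 2 lower and 5 not called. Over all probe sets tested 23.9% were called higher and 36.5% lower, and 8 loci are too few to compare with these shares. The locus called higher was AT2G29500, the measured locus next to GSTU1, which carries no gene name in RefSeq. Its values were 3.60, 4.10 and 4.10 in mock and 10.64, 10.54 and 10.56 in H2O2, a 100.2-fold increase (log2 change 6.65, SE 0.13, adjusted p = 8.20e-09 in limma). On the same side, AT2G29510, TIM10, RPC14 and TUB7 changed by -0.01, -0.16, 0.03 and 0.06, and were not called. On the side of GSTU7, AT2G29370 and the sterol oxidase gene SMO2-2 fell by 0.54 and 0.41, with adjusted p of 0.00396 and 0.0025 in limma. TOPP1, a protein phosphatase gene, was not called (0.11). The metal tolerance gene MTPB1, next to GSTU7, and HAI3 were too low to pass the filter, with differences of 0.59 and 0.24. Without a filter MTPB1 was called higher (adjusted p = 0.000999 in limma).

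**Figure D4:**
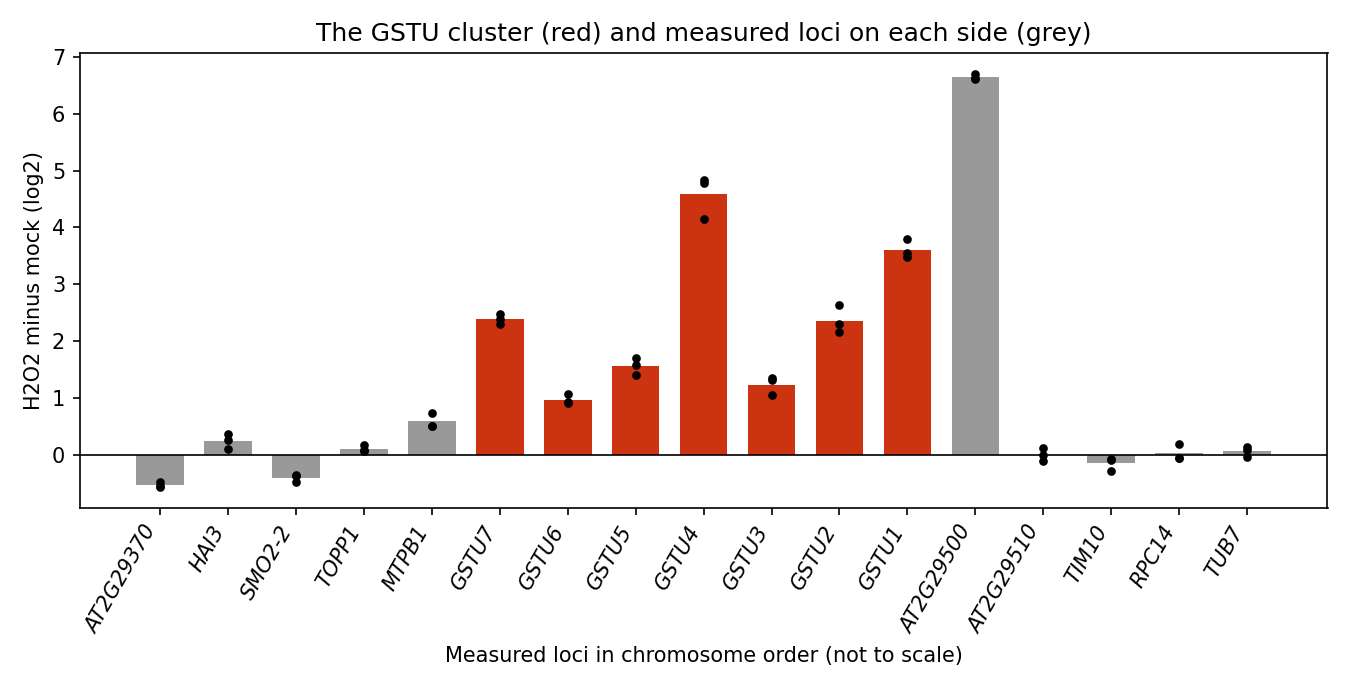
Log2 change in H2O2 minus mock (bars, vertical axis) of the 7 GSTU genes in red and the 10 measured loci beside them in grey, in chromosome order and not to scale, with points for each H2O2 array minus the mock mean. AT2G29500 reaches 6.65, and the other grey bars lie between -0.54 and 0.59.

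The other tau class genes, GSTU8 to GSTU28, showed changes in both directions. All 21 were measured and 17 passed the filter, of which 12 were higher, 3 lower and 2 not called, beside 23.9% higher and 36.5% lower over all probe sets tested. GSTU11, GSTU12 and GSTU25 were among the 12 but had mock means under the filter level, so these 3 entered the test through their H2O2 values. The median change over all 21 was 0.84, beside 2.36 over the 7 genes of the cluster and -0.04 over all 21430 probe sets. GSTU25 and GSTU24 rose by 6.23 and 5.55 on the log2 scale, above every gene of the cluster, and GSTU22 rose by 3.55, next to the 3.61 of GSTU1. GSTU26 fell by 1.05, although it stands beside GSTU24 and GSTU25 in locus order on chromosome 1. The difference between the cluster and the other tau genes was not tested, because the genes were grouped with earlier results known.

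Of 13 phi class genes, whose enzymes act on similar compounds, 9 were measured and 5 passed the filter. GSTF2, GSTF3, GSTF6 and GSTF7 had no row in the values, so the phi class as a whole is not described. The 5 that passed were then counted. Among these, 2 rose, 1 fell and 2 were not called (23.9% higher and 36.5% lower over all probe sets tested). GSTF8 rose by 1.66 and GSTF9 by 0.39, and GSTF14 fell by 3.52. The H2O2 mean of GSTF14 lay under the filter level, and with low values raised it fell by 2.73. The median over the 9 was 0.38.

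Genes tied to glutathione or its conjugates were listed by role, and not all of them are established carriers of conjugates. Of 13 listed, 12 were measured and 11 passed the filter, of which 8 were higher, 2 lower and 1 not called, where 23.9% and 36.5% of all probe sets tested were higher and lower. All 4 measured ABCC transporter genes of the list, a subgroup that was not planned, were called higher, by 0.42 to 1.86. ABCC2, whose product moves glutathione conjugates into the vacuole, rose from 6.35 ± 0.11 to 8.20 ± 0.05 (log2, SD, n = 3 each), and ABCC4 rose by 1.35. CAD1, the phytochelatin synthase gene, rose by 1.34. GR, the gene of the organellar glutathione reductase, fell by 0.43. GR1, the gene of the other glutathione reductase, and GSH1 and GSH2, which open and complete glutathione synthesis, were named after their values were seen. GR1 rose by 1.23. GSH1 rose by 0.75, and GSH2 was not called (0.22).

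All 10 genes of a further list, those of TGA factors with SCL14, GRX480 and NAC032, were tested. Of these, 6 rose, none fell and 4 were not called, beside the same 23.9% and 36.5%. Whether their products act on the GSTU genes was not tested. GRX480, a glutaredoxin that binds TGA factors, and NAC032 rose by 3.72 and 3.53, and TGA7 by 1.27. The mock mean of GRX480 lay under the filter level, so it entered the test through its H2O2 values. TGA4 was not called (-0.14). The following genes were named for their role after their values were seen. SCL14 rose by 0.78. Among the class II factors, OBF5 (TGA5) rose by 0.55, while AHBP-1B (TGA2) and TGA6 were not called, with changes of 0.05 and 0.13.

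**Figure D5:**
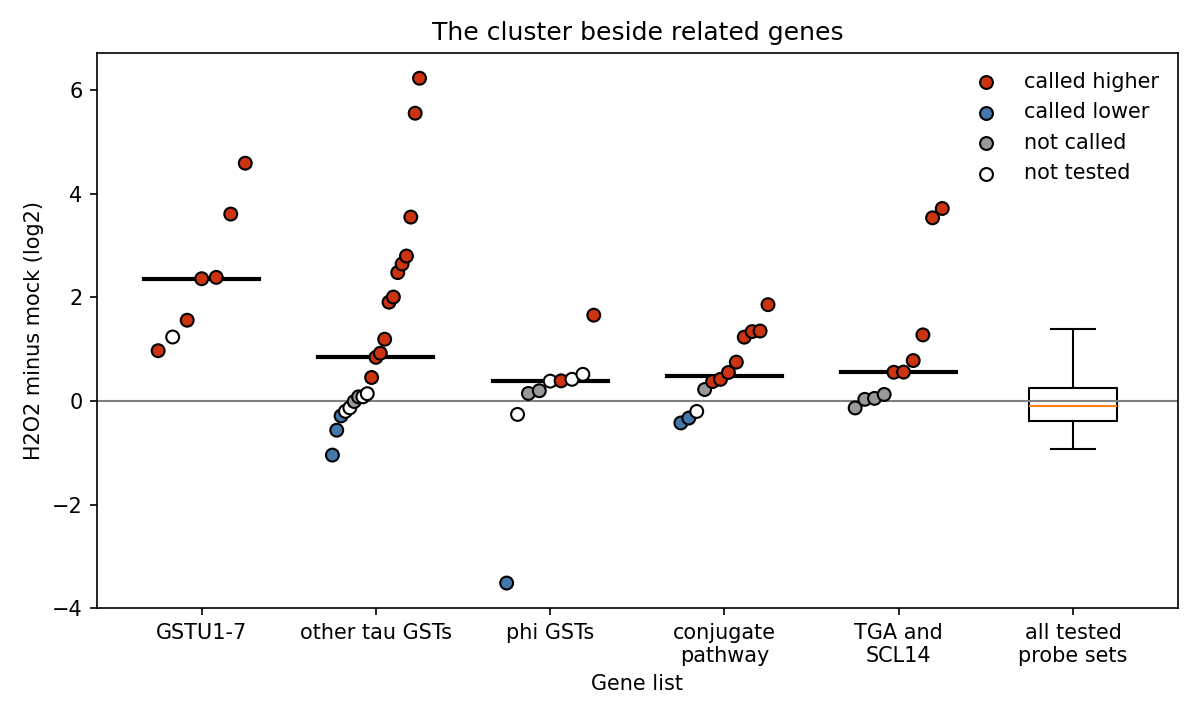
Log2 changes in H2O2 minus mock (vertical axis) of the measured genes of 5 lists (points coloured by their call, bars at the list medians), with the 5th, 25th, 50th, 75th and 95th percentiles of all tested probe sets as a box with whiskers. The points of GSTU1 to GSTU7 all lie above 0, while the other tau class genes run from -1.05 to 6.23.

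For each member, the probe set outside the cluster with the most similar profile was found among 14995, by the mean absolute difference over 6 arrays after both were centred on their mock means. In a design of 2 groups this mostly finds probe sets with an equal change. The nearest were UGT73B4 for GSTU4 (0.22 apart on the log2 scale), CP1 for GSTU1 (0.09), UGT76B1 for GSTU7 (0.06), BAP1 for GSTU2 (0.06), AT5G02430 for GSTU6 (0.05), and AT5G18400 and CAF1b for GSTU5 and GSTU3 (both 0.03).

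Among all probe sets tested, 60.4% were called. Over all probe sets, 2 arrays of the same group correlated at 0.995 to 0.997 (Pearson), and a mock with an H2O2 array at 0.951 to 0.958, where genes are not independent points. Markers of both organs were measured. In mock the 8 root markers ran from 3.95 (MRN1) and 4.28 (CASP4) to 12.02 (PYK10), with 8.04 for CASP1. Root transcripts were thus measured under the leaf label, and the shares of the organs in the pools were not tested. The mean log2 level of 8 root markers ran from 7.24 to 7.30 in mock and from 6.34 to 6.56 in H2O2, and 6 of them fell and 2 were not called, where 36.5% of all probe sets tested fell. The falls were uneven, so the mean does not stand for each of the 8 markers. The largest falls were those of PRP3, XTH14 and EXPA7, by 2.08, 1.76 and 1.57, while PYK10 and CASP4 were not called (-0.05 and 0.16). UGT72E2 fell by 0.59. CASP1 fell by 0.30 (adjusted p = 0.0488 in limma), and without a filter it was not called (adjusted p = 0.0591 in limma). MRN1 also fell by 0.30, and its H2O2 mean of 3.65 lay under the filter level. For the 5 leaf markers measured of 8 listed, the mean log2 level ran from 11.69 to 11.78 in mock and from 11.24 to 11.48 in H2O2, and 4 fell and 1 was not called. PRK and PSBO1 fell by 0.78 and 0.35, and RCA and LHCA1 both by 0.29. Over all probe sets tested, 36.5% were called lower. In bulk RNA, fewer cells of a type and less RNA per cell cannot be told apart, and the part of such shifts in the increases of the GSTU genes was not tested.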

How the data were processed

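The deposited values were on the log2 scale, as read from their range of 1.55 to 13.2, and were made by the authors with GCRMA, per the submitters' processing notes. This method uses probe sequence to correct background, brings arrays to a common distribution and condenses each probe set to 1 value. It removes overall differences in RNA amount, and its values at the bottom of the scale are uncertain. Its version was not given in the sources used here, nor were the chip type and probe definition. The number of arrays limits the precision, and array medians ran from 5.66 to 5.74.

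Groups came from the labels, with 3 arrays each. Probe sets with a mean under the 30th percentile (3.79) were left out, which removed 6429 and kept 15001. All were fitted at once with limma 3.58.1 in R 4.3.3 (eBayes after lmFit, the coefficient being H2O2 minus mock). The p-values were adjusted by Benjamini-Hochberg, and calls were made under 0.05. The script was tested on simulated data. Symbols came from a RefSeq gene table, which held 21231 of the loci. Figures were drawn with matplotlib 3.10.9.

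The members and lists were chosen with earlier results of these data known. Genes named were the members, their neighbours and the nearest profiles. In each list up to 3 called genes with the largest change were named, and the 1 with the largest change the other way. Added to these were those said to be named after their values were seen. Further root and leaf markers, tau class genes with mock means under the filter level, and phi class genes without a row were named outside this rule. Sequences and promoter motifs were not analysed here.

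After each group's mean was subtracted, arrays of the same replicate number correlated over probe sets at 0.19, 0.21 and 0.21, all above 0.1. The numbers were therefore taken to pair the arrays in the replicate block and in the differences given by replicate number. The main fit and the exact permutations did not use the pairing. That pairing comes from the data, since the labels state no shared batch. Alternatives included that replicate block, each array left out, no filter or the 50th percentile as its level, raising low values to 3.74, array weights, a prior that was trended and robust or absent, and rescaling by quantiles, by array medians or by 8 reference genes.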

Additional observations from a re-analysis of the deposited data

How the results depend on the processing

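The direction of change held for all 7 genes under all alternatives run, and GSTU1, GSTU2, GSTU4, GSTU5, GSTU6 and GSTU7 were called higher in every fit that included them, with adjusted p in limma or its unmoderated form up to 0.0106 (GSTU6, without variance moderation). The fit with the replicate number as a block (replicate block) gave an adjusted p of 9.80e-07 for GSTU4 and 0.000681 for GSTU6, and changed no call of a member. The filter decides how many members are counted. Without it 7 members were called, GSTU3 at 1.23 included, with 4 phi class genes and 2 neighbouring loci higher. In that fit 3909 of 21430 probe sets (18.2%) were called higher. At the 50th percentile GSTU2, GSTU4 and GSTU6 were no longer tested and 3 members were called. In that fit 2629 probe sets were called higher, with 0 phi class genes lower (GSTF14 was not tested) and 1 neighbouring locus lower. With low values raised, GSTU3 changed by 0.071, and the difference between GSTU3 and GSTU6 reversed to -0.90. That between GSTU2 and GSTU7 ran from -0.16 to 0.068 with each array left out, with reversed signs of 0.068, 0.029 and 0.052 without mock replicate 2, H2O2 replicate 1 and H2O2 replicate 2, and the cause was not tested. Leaving out arrays moved the count of all calls to between 7930 and 8692, from 9066. Centring on the reference genes, which shifted the overall median by 0.083, gave 4179 higher and 4329 lower, against 3584 and 5482. In the main fit 2 of the 8 reference genes were called lower and 0 higher, with a median change of -0.12. The shares of all probe sets called higher and lower thus depend on the centring.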
